A study of Mus musculus with 32 samples.

Results

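The 10 genes described here encode the 2 sarcomeric α-actins (Acta1 and Actc1), the 2 sarcomeric α-actinins (Actn2 and Actn3), 3 myosin-binding proteins (Mybpc1, Mybpc2 and Mybph) and 3 proteins that muscle makes in response to stretch and load (Ankrd1, Ankrd2 and Csrp3). They were taken by symbol from the 55487 genes of the count table, all 10 were found, and all 10 passed the filter on low counts in every fit. The samples were 32 polyA RNA-seq libraries from 16 mice: each animal gave its left soleus, a calf muscle rich in slow fibres, and its left gastrocnemius medialis, in which fast fibres prevail. Each muscle had 4 groups of 4 mice: control, Acvr1b KO, Tgfbr1 KO, and double KO, which lacks Acvr1b and Tgfbr1 together. Acvr1b (ALK4) and Tgfbr1 (ALK5) are type I receptors of the TGF-β family, through which myostatin, activins and TGF-β reach SMAD2 and SMAD3 in the muscle fibre. Knockout was restricted to myofibres, was induced with tamoxifen when the mice were 6 weeks old, and the muscles were collected 3 months later. The promoter that drove the recombinase, and which alleles the control mice carried, are not given in the sources used here. The 4 double KO mice carry animal numbers from a separate range, above those of the remaining 12 mice, so that a difference between double KO and the other groups cannot be told apart from one between cohorts.

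Thin filaments are polymers of α-actin, which in adult skeletal muscle comes almost wholly from Acta1, while Actc1 is the main actin of the heart and of embryonic muscle. At the Z-disc, α-actinins cross-link thin filaments of neighbouring sarcomeres: Actn2 is made in all fibres and Actn3 in fast glycolytic fibres. Myosin-binding protein C lies along the thick filament, as Mybpc1 in slow and many fast fibres and Mybpc2 in fast fibres, and Mybph is a smaller relative that shares its C-terminal domains. Ankrd1 and Ankrd2 are muscle ankyrin repeat proteins that bind the titin filament and also enter the nucleus, and Csrp3 (muscle LIM protein) is part of the Z-disc and is best known as a sensor of load in heart and slow muscle.

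Library totals ran from 16535498 to 54456977 counts, and levels are given as CPM, counts scaled to a common library size with TMM factors over all 32 libraries, as mean ± SD with n = 4 separate mice. Acvr1b counts checked the labels: in gastrocnemius they lay at 94.2 to 117 CPM in control, 23.7 to 27.2 in Acvr1b KO, 70.1 to 104 in Tgfbr1 KO and 14.03 to 23.3 in double KO, and in soleus at 29.1 to 46.0, 11.1 to 13.9, 24.03 to 34.1 and 6.93 to 10.05 in the same order. Tgfbr1 counts, taken over all exons, lay at 22.9 to 37.5 CPM in control gastrocnemius, 24.6 to 31.8 in the libraries labelled Tgfbr1 KO, 24.4 to 31.9 in Acvr1b KO and 38.4 to 56.3 in double KO; in soleus the 4 ranges were 13.6 to 17.2, 12.8 to 18.99, 9.38 to 18.9 and 14.7 to 51.2. Where the deleted part of Tgfbr1 lies is not given in the sources used here, so the counts do not check the Tgfbr1 labels, and results for Tgfbr1 KO rest on the labels alone. Of 7 heart markers, Nppa was at most 0.0282 CPM and Tnni3 at most 0.635 CPM. Myh6, which made up most of the list's sum, measured 122 to 188 CPM in control gastrocnemius and 1216 to 1509 CPM in control soleus. The slow fibre marker Myh7 measured 635 to 1036.5 CPM and 6632 to 9308.5 CPM there. Multi-mapping reads entered as fractions, and the part of reads shared with other myosins in the Myh6 counts was not tested. The mouse double KO 1 stood apart in both muscles: 10 markers of denervated fibres (acetylcholine receptor subunits, Musk, Myog, Runx1 and others) summed to 590 CPM in its gastrocnemius and 1480 CPM in its soleus, against 160 to 177 CPM and 83.6 to 92.3 CPM in the other 3 double KO mice and 121 to 128 CPM and 96.3 to 112 CPM in controls. Values without this mouse stand beside the results that it moves most.

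**Figure D1:**
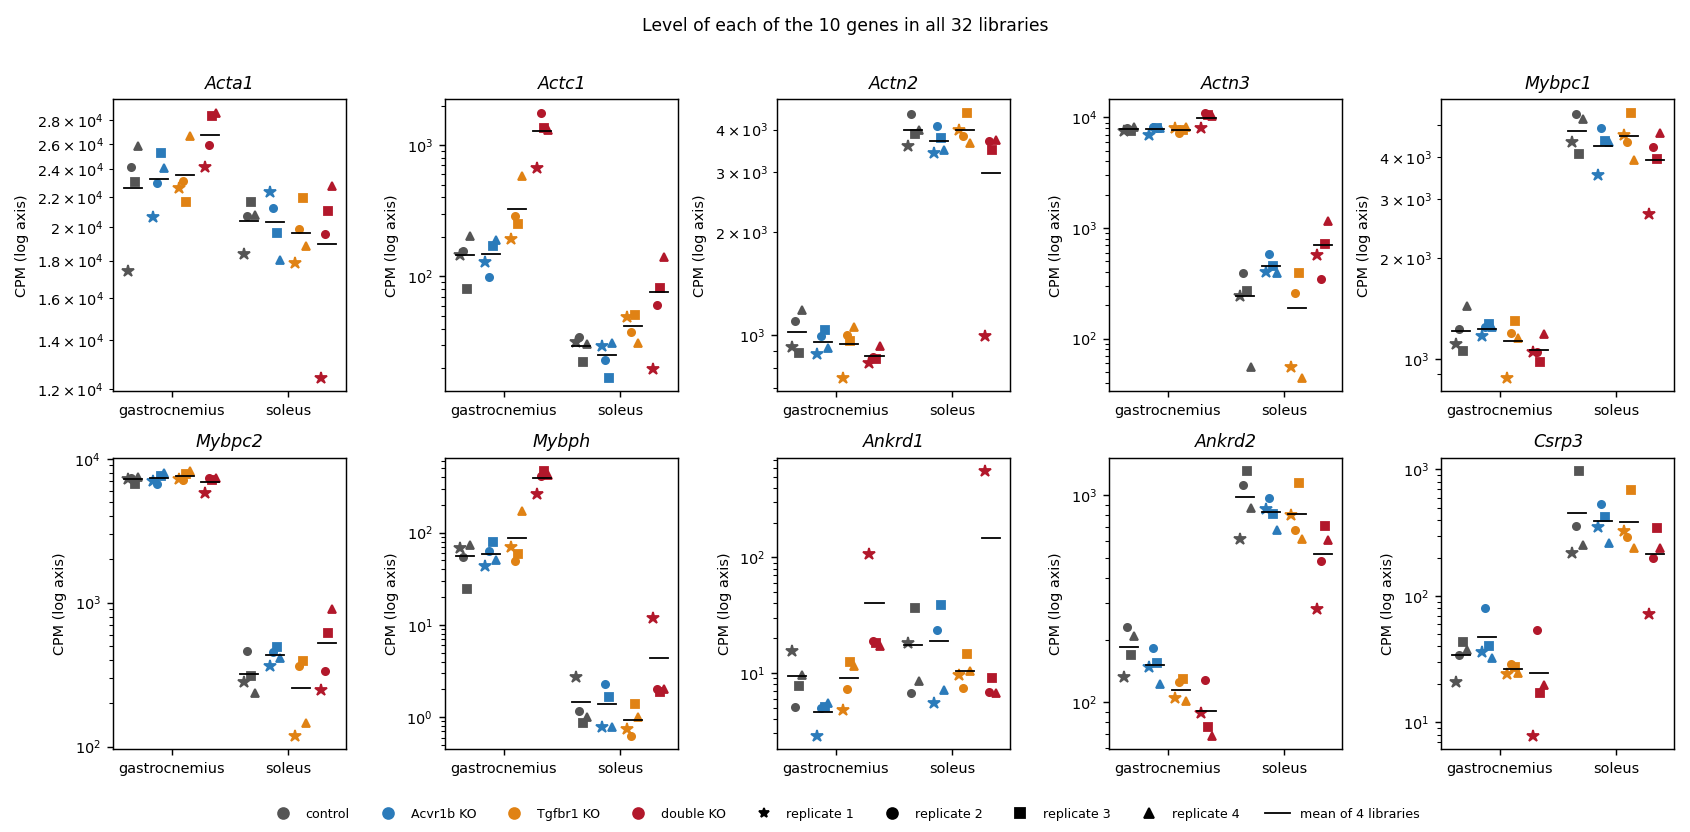
Level of each gene in every library, in CPM on a log axis, for the 4 genotypes in gastrocnemius (left group of each panel) and soleus (right group); points are single libraries with 1 marker shape per replicate number, and bars are means of 4 libraries. Actc1 and Mybph of the double KO gastrocnemius lie above all other libraries, and the stars of double KO replicate 1 lie far from their group for Ankrd1 in both muscles and for Actn2 in soleus.

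The 2 control muscles differed in the order of these genes by level. Per kilobase of gene model, the order of mean levels in control gastrocnemius was Acta1 (14733 ± 2373 CPM per kb), Actn3 (2706 ± 135), Mybpc2 (1989 ± 86.8), Actn2 (270 ± 37.6), Mybpc1 (266 ± 37.2), Ankrd2 (163 ± 38.6), Actc1 (90.3 ± 31.1), Mybph (23.7 ± 9.46), Csrp3 (12.7 ± 3.55) and Ankrd1 (3.28 ± 1.52). Libraries overlapped there between the neighbours Actn2 and Mybpc1, Ankrd2 and Actc1, and Mybph and Csrp3. In control soleus the order was Acta1 (13271 ± 926 CPM per kb), Mybpc1 (1054 ± 135), Actn2 (1049 ± 93.97), Ankrd2 (860.4 ± 266), Csrp3 (169 ± 133), Mybpc2 (89.2 ± 27.5), Actn3 (82.9 ± 48.5), Actc1 (18.4 ± 3.29), Ankrd1 (6.04 ± 4.73) and Mybph (0.620 ± 0.374). Libraries overlapped between neighbours from Mybpc1 to Ankrd2 and from Csrp3 to Actc1 in that order.

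Tested in 1 edgeR fit of all 32 libraries, 8 of the 10 genes differed between control soleus and control gastrocnemius (adjusted p under 0.05), where 40.4% of all genes tested did, and the libraries of the 2 muscles did not overlap for these 8 (38.4% of all genes). This fit held no term for the mouse, though both muscles came from the same animals. With each mouse as a block, again 8 were called. Of all genes 20.5% were higher and 20% lower in soleus. Higher in soleus were Csrp3 (log2 difference 3.73, SE 0.54, adjusted p = 1.97e-06), Ankrd2 (2.40, SE 0.26, adjusted p = 1.66e-08), Mybpc1 (1.98, SE 0.15, adjusted p = 2.28e-11) and Actn2 (1.96, SE 0.23, adjusted p = 5.29e-08). Lower in soleus were Mybph (−5.25, SE 0.58, adjusted p = 2.32e-08), Actn3 (−5.03, SE 0.55, adjusted p = 2.13e-08), Mybpc2 (−4.48, SE 0.36, adjusted p = 4.00e-11) and Actc1 (−2.30, SE 0.41, adjusted p = 4.27e-05). For Acta1 the log2 difference was −0.15 (95% interval −0.45 to 0.14) and for Ankrd1 0.88 (−1.10 to 2.86). Actn3 thus made up 90.97 ± 0.738% of the α-actinin pair (CPM per kb) in control gastrocnemius and 7.15 ± 3.74% in control soleus, and Mybpc1 made up 11.8 ± 1.11% and 92.2 ± 1.88% of the Mybpc1 and Mybpc2 pair.

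**Figure D2:**
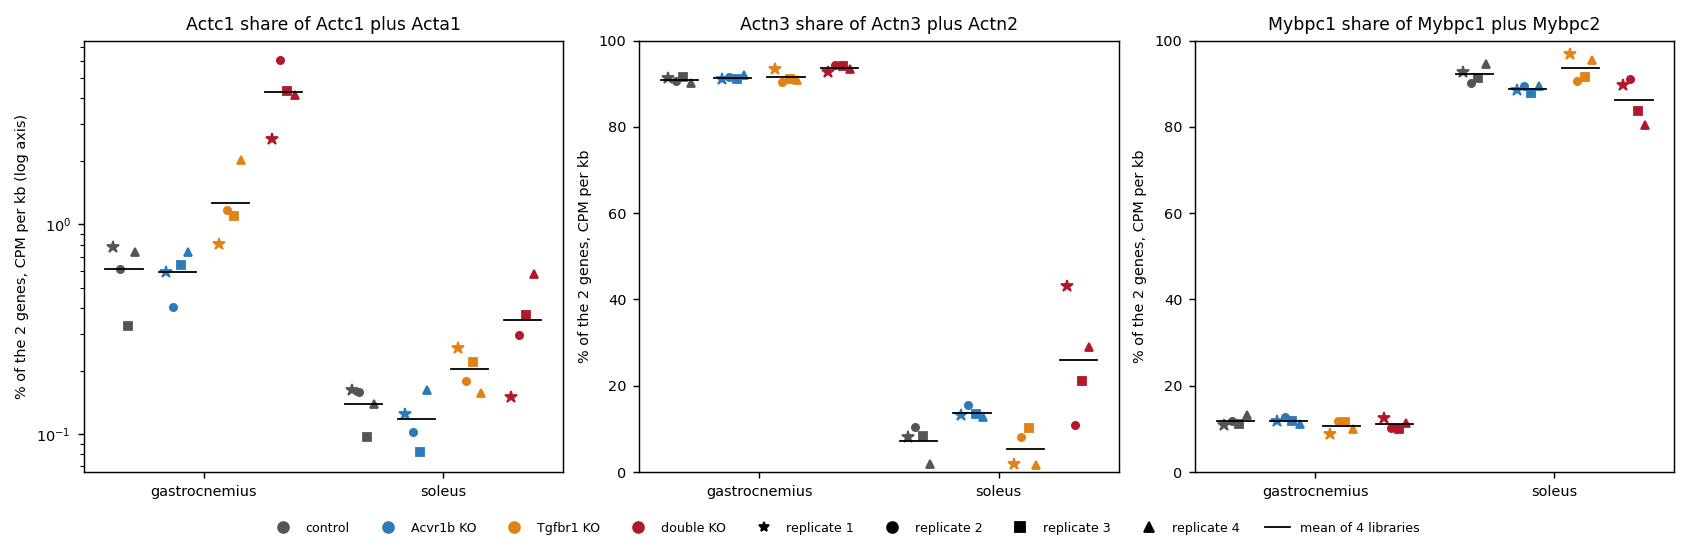
Share of 1 gene in each of 3 pairs, in percent of their summed CPM per kilobase, by library; the Actc1 panel has a log axis and the other panels run from 0 to 100%, markers are single libraries and bars are means of 4. The Actc1 share in double KO gastrocnemius (2.55 to 6.07%) lies above every other library, while the shares of Mybpc1 and Actn3 divide the libraries by muscle.

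In the double KO gastrocnemius, 4 of the 10 genes rose and 1 fell against control (edgeR quasi-likelihood test, 17536 genes, Benjamini-Hochberg adjusted p under 0.05); of all genes tested, 11.4% rose and 9.59% fell, 20.9% in all. Actc1, Mybph, Ankrd1 and Actn3 rose and Ankrd2 fell. For Actc1, Mybph, Ankrd1 and Ankrd2 no double KO library overlapped a control library, which held for 21.3% of all genes. The median log2 change of the 10 genes was 0.11 and that of all genes 0.00. Without the 3 gastrocnemius libraries that stand apart (control 1, Tgfbr1 KO 1 and double KO 1), again 5 of the 10 were called. A whole muscle holds many cell types, and bulk counts cannot tell fewer cells of a type from less RNA per cell.

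**Figure D3:**
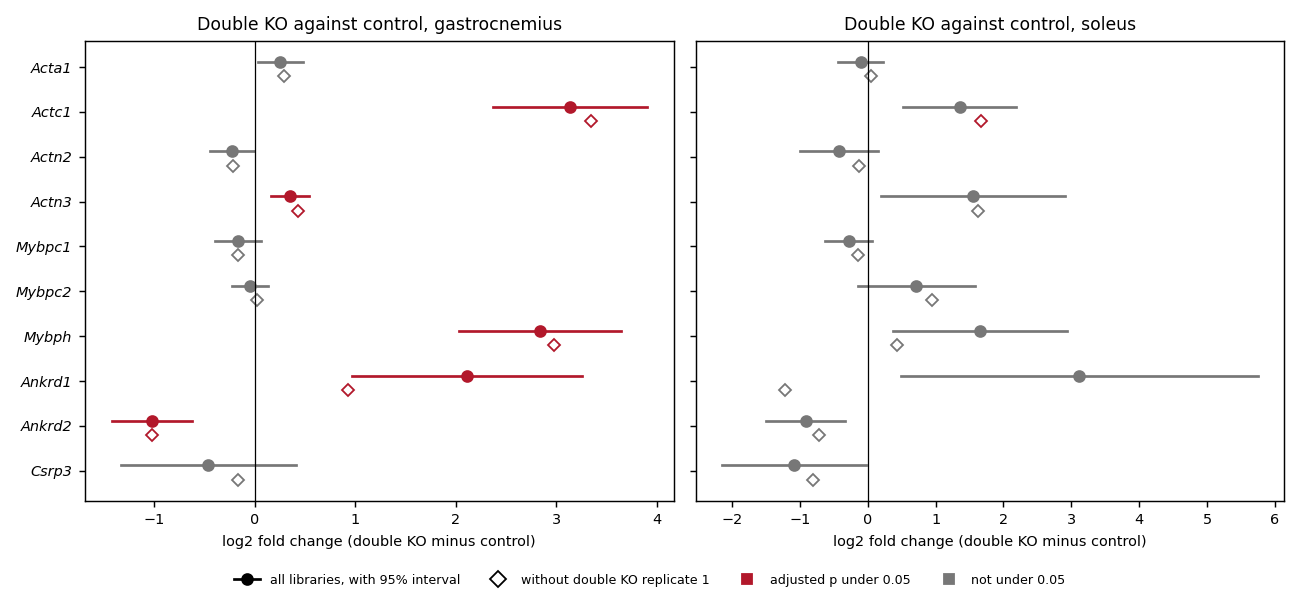
Log2 fold change of each gene in double KO against control, in gastrocnemius (left) and soleus (right); filled circles with lines give the estimate from all libraries with its 95% interval, open diamonds the estimate without double KO replicate 1, and red marks an adjusted p under 0.05. In gastrocnemius Actc1 (3.13) and Mybph (2.84) hardly move without that library, while Ankrd1 moves from 2.11 to 0.93; in soleus Ankrd1 moves from 3.11 to −1.22.

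Actc1 (ENSMUSG00000068614, GRCm38 chromosome 2, 114047282 to 114053548, minus strand) was the member with the largest change. Control gastrocnemius libraries held 145, 157, 80.2 and 202 CPM, and double KO libraries 665, 1763, 1349.9 and 1308 CPM. The lowest double KO library was thus above the highest control library. The log2 change was 3.13 (SE 0.36, 95% interval 2.37 to 3.90, adjusted p = 1.58e-05), an 8.77-fold rise. Ranked by CPM per kilobase among all genes of the table, Actc1 moved from place 374 in control to place 56 in double KO. Its share of the actin pair went from 0.615 ± 0.204% to 4.27 ± 1.44%. Among markers of immature or regenerating fibres, Myog, Myod1 and Ncam1 were higher and the counts of Myh3 and Myh8 (embryonic and perinatal myosin) lower. Of 6 tested, 3 thus rose and 2 fell. Mean Myh3 went from 284 to 211 CPM and Myh8 from 5661 to 3653 CPM, beside fast myosin Myh4 from 78107 to 56146 CPM. Multi-mapping reads entered as fractions, and the part of reads shared among myosins in the Myh3 and Myh8 counts was not tested. Actc1 was lowest in the double KO mouse with the highest denervation markers, and its log2 change was 3.34 (adjusted p = 6.99e-06) without that library. Reads shared with other places in the genome gave Actc1 fractional counts in 24 of the 32 libraries and Acta1 in all 32. A part of the reads of these related genes could thus be divided between them, which was not tested.

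Acta1 (ENSMUSG00000031972, chromosome 8, 123891769 to 123894751, minus strand), the adult skeletal actin, remained the far larger of the pair in every group. It measured 17434, 24181, 23075 and 25832 CPM in control gastrocnemius and 24164, 25910, 28365 and 28686 CPM in double KO, so that the groups overlapped. The log2 change of 0.26 (SE 0.11, 95% interval 0.03 to 0.48) had an unadjusted p of 0.0278 and an adjusted p of 0.0991. Acta1 held on average 2.00% of all counts in control gastrocnemius and 2.65% in double KO.

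Among the myosin-binding proteins, Mybph (ENSMUSG00000042451, chromosome 1, 134193448 to 134201232, plus strand) rose beside 2 relatives that did not pass the test. Mybph measured 67.2, 54.9, 24.3 and 74.001 CPM in control gastrocnemius and 263, 413, 468 and 420.5 CPM in double KO. All 4 double KO libraries lay above all controls, and the log2 change was 2.84 (SE 0.38, 95% interval 2.03 to 3.64, adjusted p = 6.39e-05), a 7.15-fold rise. For Mybpc1 (ENSMUSG00000020061, chromosome 10, 88518279 to 88605152, minus strand) the log2 change was −0.16 (95% interval −0.39 to 0.06, adjusted p = 0.302), from 1206 ± 169 to 1066 ± 88.3 CPM. For Mybpc2 (ENSMUSG00000038670, chromosome 7, 44501699 to 44524656, minus strand) it was −0.05 (−0.22 to 0.13, adjusted p = 0.735), from 7181 ± 313 to 6902 ± 734 CPM, and 0.02 without double KO 1.

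The 2 α-actinins had changes of opposite sign. Actn3 (ENSMUSG00000006457, chromosome 19, 4861216 to 4877909, minus strand) measured 7536, 8094.5, 7502 and 8271 CPM in control gastrocnemius and 7964, 11030, 10497 and 10202 CPM in double KO. Only double KO 1 lay within the range of the controls, and the log2 change was 0.35 (SE 0.09, 95% interval 0.16 to 0.54, adjusted p = 0.0114). Fitted on the 8 libraries of these 2 groups alone, the adjusted p was 0.0785. Actn2 (ENSMUSG00000052374, chromosome 13, 12269426 to 12340760, minus strand) went from 1023 ± 143 to 867 ± 44.3 CPM, a log2 change of −0.23 (SE 0.10, 95% interval −0.44 to −0.01, adjusted p = 0.132). Slow fibre markers were lower in double KO gastrocnemius beside this (7 of 8 fell, with a summed level of 928 to 1501 CPM against 1969 to 2992 CPM in controls). None of 8 fast fibre markers rose and 3 fell; their part in the Actn3 result was not tested.

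Of the stretch-response genes, Ankrd1 rose, Ankrd2 fell and Csrp3 did not pass the test. Ankrd2 (ENSMUSG00000025172, chromosome 19, 42036000 to 42045110, plus strand) measured 132, 231, 169.6 and 209 CPM in control gastrocnemius and 88.5, 128, 76.1 and 68.7 CPM in double KO. Every double KO library lay below every control library, and the log2 change was −1.02 (SE 0.19, 95% interval −1.42 to −0.62, adjusted p = 0.00112). Csrp3 (ENSMUSG00000030470, chromosome 7, 48830398 to 48848033, minus strand) measured 20.9, 34.4, 43.3 and 37.4 CPM in controls and 7.82, 53.4, 17.2 and 19.8 CPM in double KO. Here double KO 2 was higher than any control and the other 3 double KO libraries were lower than all of them. The log2 change of −0.46 (95% interval −1.33 to 0.41, adjusted p = 0.463) became −1.17 with an adjusted p of 0.0224 when double KO 2 was left out, and −0.17 with an adjusted p of 0.777 when double KO 1 was left out.

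Ankrd1 (ENSMUSG00000024803, chromosome 19, 36111961 to 36120099, minus strand) measured 15.4, 5.09, 7.79 and 9.52 CPM in control gastrocnemius and 108, 18.98, 18.2 and 17.2 CPM in double KO. The groups did not overlap, but double KO 1 held over 5 times the level of the other 3 double KO libraries. The log2 change was 2.11 (SE 0.54, 95% interval 0.97 to 3.26, adjusted p = 0.0106) with that library and 0.93 (adjusted p = 0.0464) without it. The adjusted p was 0.0539 with no filter on low counts and 0.0540 in a fit of these 2 groups alone. In the same mouse Myog, a transcription factor that denervated and regenerating fibres make, measured 14.4 CPM in gastrocnemius and 46.5 CPM in soleus, against 2.28 to 2.54 CPM in both muscles of the other double KO mice. The denervation markers were also higher in the other double KO gastrocnemius libraries, at lower size (160 to 177 CPM against 121 to 128 CPM in controls). Of 9 tested, 7 rose in the comparison of the groups. In soleus, control 3 and Acvr1b KO 3 held 36.5 and 39.1 CPM of Ankrd1 at marker sums of 96.3 and 98.9 CPM. Double KO 2, 3 and 4 held 6.90, 9.11 and 6.66 CPM there at sums of 83.6, 92.3 and 90.3 CPM. The part of these markers in the Ankrd1 result was not tested.

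**Figure D4:**
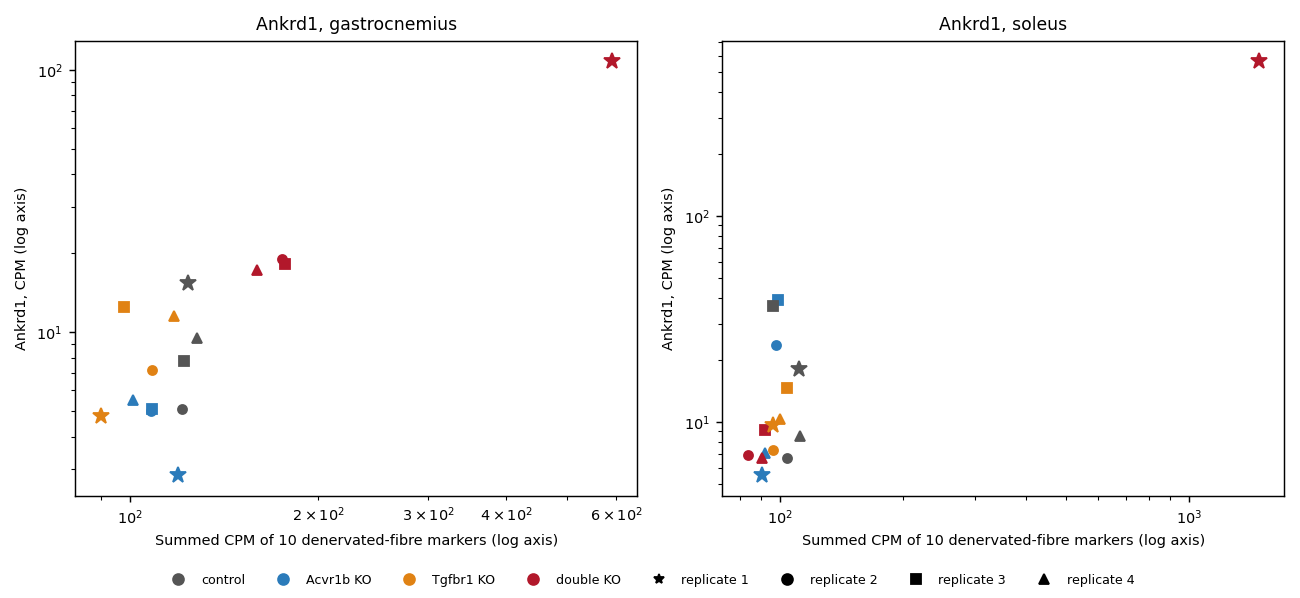
Ankrd1 against the summed level of 10 denervated-fibre markers in gastrocnemius (left) and soleus (right), both in CPM on log axes; each point is a library, coloured by genotype, with 1 marker shape per replicate number. The star of double KO replicate 1 lies at 590 and 108 CPM in gastrocnemius and at 1480 and 563 CPM in soleus, far from the other 15 libraries of its muscle.

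Promoter windows are shown for both actins, of which Actc1 rose and Acta1 did not pass the test, for Mybph and Ankrd1, which rose, and for Ankrd2, which fell. Each is the 250 bases before the RefSeq start (GRCm38.p6), written 5′ to 3′ on the strand of the gene, with matches to the CArG box, the element that binds serum response factor, and to the MCAT element CATTCC, which binds TEAD factors, in capitals on either strand (GGAATG is its reverse). RefSeq held windows for 9 of the 10 genes, all but Actn3. The windows are chr8:123894776-123895025 (Acta1, minus strand), chr2:114052876-114053125 (Actc1, minus strand), chr1:134193198-134193447 (Mybph, plus strand), chr19:36119845-36120094 (Ankrd1, minus strand) and chr19:42035777-42036026 (Ankrd2, plus strand). The RefSeq start lies 673 bases inside the Ensembl gene model for Actc1, 255 bases inside for Ankrd1 and 27 for Ankrd2. The Ensembl models of these genes thus start upstream of the one shown. For Acta1 the RefSeq start lies 24 bases upstream of the Ensembl start. Distances given below are to the RefSeq start.
Acta1: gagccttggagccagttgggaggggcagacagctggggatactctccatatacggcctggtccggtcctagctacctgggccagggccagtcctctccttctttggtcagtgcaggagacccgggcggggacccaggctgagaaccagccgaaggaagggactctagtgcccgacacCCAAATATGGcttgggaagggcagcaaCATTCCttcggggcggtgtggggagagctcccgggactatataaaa
Actc1: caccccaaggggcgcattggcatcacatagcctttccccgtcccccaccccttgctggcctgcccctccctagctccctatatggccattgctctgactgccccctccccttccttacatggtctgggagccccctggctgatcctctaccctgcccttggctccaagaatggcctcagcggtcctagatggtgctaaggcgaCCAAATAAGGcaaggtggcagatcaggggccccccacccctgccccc
Mybph: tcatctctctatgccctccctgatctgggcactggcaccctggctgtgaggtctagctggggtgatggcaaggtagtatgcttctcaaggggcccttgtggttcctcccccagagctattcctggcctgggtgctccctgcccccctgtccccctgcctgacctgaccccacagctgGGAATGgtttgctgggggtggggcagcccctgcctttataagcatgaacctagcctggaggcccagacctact
Ankrd1: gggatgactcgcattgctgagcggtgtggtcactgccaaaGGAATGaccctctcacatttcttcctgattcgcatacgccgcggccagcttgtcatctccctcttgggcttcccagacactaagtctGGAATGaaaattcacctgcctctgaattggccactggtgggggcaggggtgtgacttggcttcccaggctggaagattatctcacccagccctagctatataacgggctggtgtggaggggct
Ankrd2: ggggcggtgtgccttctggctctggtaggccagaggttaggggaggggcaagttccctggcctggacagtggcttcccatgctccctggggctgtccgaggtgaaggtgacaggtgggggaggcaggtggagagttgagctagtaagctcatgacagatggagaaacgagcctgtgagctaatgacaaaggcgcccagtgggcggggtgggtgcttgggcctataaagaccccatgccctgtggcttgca
The CArG box begins 73 bases before the start in Acta1 and 47 bases before it in Actc1, and 1.47% of 32851 RefSeq windows of this length hold a match. CATTCC on either strand begins 46 bases before the start in Acta1, 73 in Mybph, 62 in Mybpc2, and 210 and 123 in Ankrd1, and 12.6% of all windows hold it. None of the motifs in capitals was found in the Ankrd2, Actn2, Mybpc1 or Csrp3 windows. The E-box CANNTG, searched on both strands, occurred in every member window but that of Actc1, and in 66.2% of all windows. CAGAC, the core of the SMAD-binding element, occurred on either strand in the Acta1, Actc1, Mybpc2, Mybph and Ankrd1 windows and in 1 of the 2 Csrp3 windows, and in 42.2% of all windows; it overlaps CATTCC by 1 base at 1 place in Ankrd1. The MEF2 site was in no member window and in 2.92% of all. These matches describe letters in the windows and say nothing of binding in these muscles.

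By DESeq2, loss of 1 receptor alone moved none of the 10 genes past the threshold in either muscle, though Ankrd1 had no adjusted p. By edgeR it moved none of the 10 genes past the threshold. In gastrocnemius, 0.0285% of all genes passed for Acvr1b KO against control and 0.171% for Tgfbr1 KO against control, and 0 and 2 of the 10 genes had an unadjusted p under 0.05, as did 4.42% and 6% of all genes. In soleus the shares were 0.022% and 0.0496%, with 0 of the 10 genes under an unadjusted 0.05 in each (1.95% and 2.26% of all genes). The 2 genes in Tgfbr1 KO gastrocnemius were Actc1 and Ankrd2. Actc1 measured 193, 289.65, 252 and 580.2 CPM there, a log2 change of 1.17 (SE 0.34, 95% interval 0.45 to 1.89, adjusted p = 0.418), and only the lowest of these libraries lay within the control range. Ankrd2 measured 104, 125, 129 and 101.6 CPM, below all 4 controls (log2 change −0.69, SE 0.19, 95% interval −1.08 to −0.29, adjusted p = 0.367). In Acvr1b KO gastrocnemius, Actc1 lay at 98.6 to 189.85 CPM and its log2 change was 0.02 (95% interval −0.69 to 0.73), while Ankrd1 lay at 2.85 to 5.52 CPM (−1.04, 95% interval −2.22 to 0.15, adjusted p = 1.00). Mybph had intervals of −0.66 to 0.86 in Acvr1b KO and −0.10 to 1.42 in Tgfbr1 KO.

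Against the single knockouts, the double KO gastrocnemius differed in 5 and 4 of the 10 genes. Against Acvr1b KO 5 were called (16.3% of all genes, 9.2% higher and 7.06% lower): Ankrd1 (log2 change 3.15, adjusted p = 0.00126), Actc1 (3.12, adjusted p = 2.24e-05), Mybph (2.74, adjusted p = 0.000121) and Actn3 (0.35, adjusted p = 0.0134) were higher and Ankrd2 (−0.74, adjusted p = 0.0127) was lower. Against Tgfbr1 KO, 4 were higher (12.9% of all genes were called, 7.44% higher): Ankrd1 (2.18, adjusted p = 0.0147), Mybph (2.18, adjusted p = 0.00104), Actc1 (1.96, adjusted p = 0.00134) and Actn3 (0.36, adjusted p = 0.0137). Ankrd2 had a log2 change of −0.34 (95% interval −0.73 to 0.06, adjusted p = 0.279) there. Without double KO 1 the Ankrd1 difference was 1.97 from Acvr1b KO (adjusted p = 0.000616), below those of Actc1 and Mybph, and 1.00 from Tgfbr1 KO (adjusted p = 0.0544). The Actn3 call was lost against Acvr1b KO without Acvr1b KO 1 (adjusted p = 0.0507) and against Tgfbr1 KO without Tgfbr1 KO 2 (adjusted p = 0.0539), and Csrp3 was lower than in Acvr1b KO without double KO 2 (−1.65, adjusted p = 0.00370). These comparisons share the double KO libraries with each other and with the comparison against control.

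Whether the double KO went beyond the sum of the 2 single knockouts was tested as a departure from additivity on the log2 scale. In gastrocnemius 3 of the 10 genes were called, all higher than the sum, where 2.14% of all genes were called, 1.48% higher. The departure was 3.21 for Ankrd1 (SE 0.78, adjusted p = 0.0409), 2.08 for Mybph (SE 0.51, adjusted p = 0.0430) and 1.95 for Actc1 (SE 0.48, adjusted p = 0.0432). All 3 lie close to the threshold: the count was 0 with no filter on low counts and ran from 0 to 4 when single libraries were left out. Leaving out any 1 Acvr1b KO library, control 1 or 4, or Tgfbr1 KO 1, 2 or 3 gave 0, and leaving out control 2 or double KO 2, 3 or 4 gave 1 (Ankrd1). Ankrd1 was lost without control 3 (adjusted p = 0.0648) or Tgfbr1 KO 4 (0.0511), and Actn3 was called besides (0.45, adjusted p = 0.0196) without double KO 1. The Ankrd1 departure itself was 2.03 (adjusted p = 0.0204) without double KO 1 and 1.501 (adjusted p = 0.0241) without the 3 libraries that stand apart, where Mybph lost its call (2.02, adjusted p = 0.0690). For Ankrd2 the departure was −0.06 (95% interval −0.62 to 0.51). In soleus 0 of the 10 genes, and 0% of all genes, were called by edgeR, with 2 of the 10 under an unadjusted p of 0.05 (3.38% of all genes). DESeq2 called 0 there and gave Ankrd1 no adjusted p.

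In the double KO soleus none of the 10 genes passed the threshold against control by edgeR, where 0.722% of all genes did; at an unadjusted 0.05, 6 of the 10 and 12.2% of all genes lay under the threshold. DESeq2 called 2 genes, Actc1 (log2 change 1.35, adjusted p = 0.0243) and Ankrd2 (−0.91, adjusted p = 0.0447). DESeq2 gave no adjusted p for Ankrd1. Actc1 measured 31.6, 34.7, 22.2 and 30.4 CPM in control soleus and 19.6, 61.1, 82.4 and 140.2 CPM in double KO. The lowest value of all 8 was that of double KO 1, and the other 3 lay above every control. With edgeR the log2 change was 1.35 (SE 0.39, 95% interval 0.52 to 2.19, adjusted p = 0.142), and it was 1.67 (adjusted p = 0.00753) without double KO 1. Ankrd2 measured 617, 1116, 1314 and 871 CPM in controls and 281, 483, 707 and 608 CPM in double KO, overlapping by 1 library, with a log2 change of −0.91 (SE 0.27, 95% interval −1.49 to −0.33, adjusted p = 0.159). Without double KO 1 this was −0.72 (adjusted p = 0.206).

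Ankrd1 in soleus followed 1 mouse. Controls measured 18.04, 6.70, 36.5 and 8.52 CPM and double KO 563, 6.90, 9.11 and 6.66 CPM. The fitted log2 change of 3.11 (adjusted p = 0.311) became −1.22 (adjusted p = 0.504) when double KO 1 was left out. Mybph, which was at most 2.74 CPM in all other soleus libraries, measured 11.8 CPM in double KO 1, and its log2 change went from 1.66 (adjusted p = 0.265) to 0.43 (adjusted p = 0.727) without it. Actn2 in that library was 991 CPM against 3493 to 4451 CPM in the other double KO and the control libraries, and Mybpc1 was 2702 CPM against 3941 to 5369 CPM. Slow fibre markers summed to 12675 CPM in it, against 23451 to 25661 CPM in the other double KO mice and 25202 to 29946 CPM in controls.

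Actn3 and Mybpc2 varied widely between soleus libraries of the same genotype. Control soleus measured 243, 395, 269 and 54.8 CPM of Actn3, Tgfbr1 KO 55.8, 256, 394 and 44.1 CPM, Acvr1b KO 397, 576, 453 and 393 CPM, and double KO 572, 345, 714 and 1168 CPM. Only double KO 2 fell within the control range, and the log2 change against control was 1.55 (SE 0.64, 95% interval 0.20 to 2.90, adjusted p = 0.333). Mybpc2 lay at 237 to 464 CPM in controls and 246 to 910.2 CPM in double KO (0.71, 95% interval −0.15 to 1.57, adjusted p = 0.505). Both genes followed Myh4, the myosin of the fastest fibres, across the 16 soleus libraries (Pearson r of log2 values 0.88 for Actn3 and 0.93 for Mybpc2, as a description; the points share their library's fibre make-up and dissection). Myh4 measured 683 to 3639 CPM in controls and 1150 to 8408 CPM in double KO, and its part in the Actn3 and Mybpc2 values was not tested. Double KO 1 held 572 CPM of Actn3 at 1150 CPM of Myh4, where control 1 held 243 CPM at 1212 CPM. For Mybph, which was low in soleus, the Pearson r with Myh4 was −0.02 and the Spearman rho 0.26. The library with the most Myh4, double KO 4, held 1.99 CPM of Mybph, and the one with the most Mybph, double KO 1, held 11.8 CPM.

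**Figure D5:**
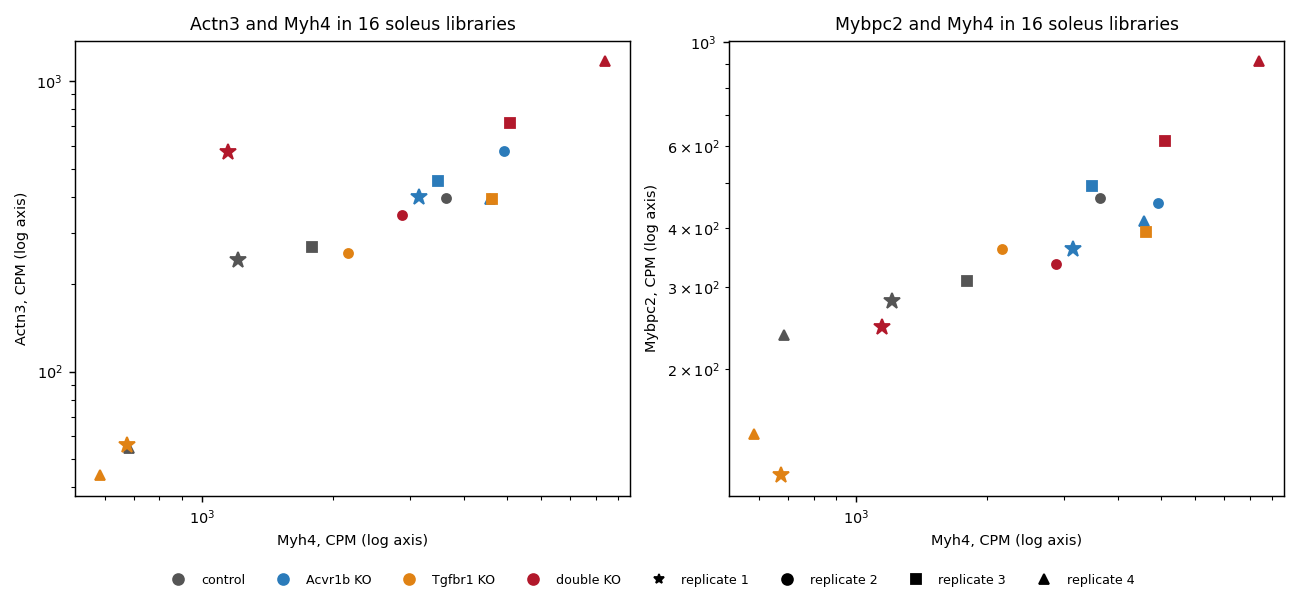
Actn3 (left) and Mybpc2 (right) against Myh4 in the 16 soleus libraries, all in CPM on log axes; each point is a library, coloured by genotype, with 1 marker shape per replicate number. Levels climb with Myh4 across the libraries, from 44.1 to 1168 CPM for Actn3 and from 119 to 910.2 CPM for Mybpc2; the star of double KO replicate 1 lies above the libraries of like Myh4 level for Actn3.

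Csrp3 in soleus spanned 219 to 977 CPM in controls and 72.5 to 343 CPM in double KO, with a log2 change of −1.08 (95% interval −2.14 to −0.02, adjusted p = 0.399). It was −0.36 (adjusted p = 0.811) without control 3, the library at 977 CPM, and −0.80 without double KO 1. Acta1 had a log2 change of −0.10 (95% interval −0.43 to 0.23), and 0.04 without double KO 1, whose 12433 CPM was the lowest Acta1 level of all 32 libraries. Against Acvr1b KO and Tgfbr1 KO soleus, the double KO had 0 of 10 genes called by edgeR (0.127% and 0.0496% of all genes), with 4 and 6 under an unadjusted p of 0.05 (11.2% and 9.13% of all genes), and DESeq2 called 1 in each (Actc1 and Mybph).

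The effect of the double KO was compared between muscles by an interaction term over all 32 libraries. None of the 10 genes was called by edgeR or DESeq2, where edgeR called 0.732% of all genes, and 1 of the 10, Actc1, had an unadjusted p under 0.05, as did 8.82% of all genes. The Actc1 change was smaller in soleus by 1.77 on the log2 scale (difference soleus minus gastrocnemius −1.77, SE 0.55, 95% interval −2.90 to −0.64, adjusted p = 0.177). With each mouse as a block, which the design allows because both muscles came from the same animals, it was −2.06 with an adjusted p of 0.0441. Leaving out soleus double KO 4 also brought it past the threshold (−2.25, adjusted p = 0.049). For Mybph the difference was −1.19 (95% interval −2.67 to 0.28, adjusted p = 0.677), and it was −2.40 (adjusted p = 0.0461) without soleus double KO 1. The Ankrd2 changes differed by 0.12 (95% interval −0.59 to 0.84), and the Actn3 changes by 1.20 (−0.15 to 2.56, adjusted p = 0.642).

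Other genes of the same structures were counted from 4 lists. Of all genes tested in double KO against control, 11.4% rose and 9.59% fell in gastrocnemius, and 0.722% were called in soleus. In double KO gastrocnemius, 7 of 29 Z-disc genes rose and 10 fell (median log2 change −0.13), among them Pdlim3, a LIM-domain partner of α-actinin, which rose from 381 to 645 CPM (0.77, adjusted p = 2.33e-05), Pdlim5, another such partner, which fell by 0.71 (adjusted p = 2.17e-05), Tcap, the titin cap, which fell by 0.66 (adjusted p = 9.08e-05), and Myoz2, calsarcin of slow fibres, which fell by 0.78 (adjusted p = 0.00959). Of 11 genes for thin filament length and actin assembly, 0 rose and 3 fell (median −0.14): Lmod2, an actin nucleator (−0.96, adjusted p = 0.0103), Neb, the nebulin ruler (−0.54, adjusted p = 0.00684), and Tmod4, which caps the pointed end (−0.29, adjusted p = 0.00719). Of 10 tested genes of the M-band and titin system, 1 rose and 4 fell (median −0.32). Obsl1, a cytoskeletal adaptor of the M-band, rose by 1.27 (adjusted p = 0.000138), Ttn, the titin filament, fell by 0.53 (adjusted p = 0.00441), and Capn3, a protease that binds titin, fell by 0.53 (adjusted p = 0.000806). In soleus the single call over these 3 lists was Lmod2 (−0.85, adjusted p = 0.0280).

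Among 22 tested genes of stretch signalling and of the SRF and YAP pathways, 3 rose and 4 fell in double KO gastrocnemius (median −0.12). Of all genes tested there, 11.4% rose and 9.59% fell. None of the list was called in soleus. Tead1, a factor that binds the MCAT element, fell by 0.96 (363 to 185 CPM, adjusted p = 4.32e-05), while its relative Tead4 rose by 0.67 (10.2 to 15.9 CPM, adjusted p = 0.00433). Vgll2, a TEAD cofactor, fell by 1.11 (adjusted p = 0.000212), and Fhl1, a LIM protein that binds titin, fell by 0.69 (adjusted p = 0.00434). Srf itself had a log2 change of −0.02 (adjusted p = 0.923).

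For each of the 5 genes called in double KO gastrocnemius, the 3 genes whose log2 levels ran most alike over the 32 libraries, after the mean of each muscle was subtracted, are given as a description. Actc1 ran with Etv5 (Pearson r 0.88), Crhr2 (0.86) and Egf (0.86), and Mybph with Mlec (0.88), Stbd1 (0.88) and Spire1 (0.87). Actn3 ran with Pvalb, the calcium buffer of fast fibres (0.96), Myh4 (0.84) and Atp1b2 (0.83). In double KO gastrocnemius Myh4 fell by 0.47 on the log2 scale (adjusted p = 0.00339) and Pvalb changed by 0.02 (adjusted p = 0.884). The part of either in the Actn3 result was not tested. Ankrd2 ran with Dnajb5 (0.83), Mast2 (0.83) and Pla2g12a (0.82). For Ankrd1 the 3 were Ctnna1 (0.92), Srxn1 (0.89) and Ubxn4 (0.89), and without both libraries of mouse double KO 1 (30 libraries) these fell to 0.77, 0.65 and 0.63. Among the members themselves the closest pairs were Actn3 with Mybpc2 (0.86), Ankrd2 with Csrp3 (0.82) and Actn2 with Mybpc1 (0.81), and Actc1 with Acta1 gave 0.51. All these points share mice, genotypes and library scaling.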

How the data were processed

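Sequencing of polyA RNA gave 1 table of expected counts per gene, deposited by the authors and made with featureCounts 2.0.1 on GRCm38 with Ensembl 102 models, per the file headers. Only the reverse strand was counted (option 2), and multi-mapping reads entered as fractions. The submitters' processing notes also name cutadapt, HISAT2, FastQC 0.11.9 and DESeq2. The aligner's settings are not given in the sources used here. RIN values were above 7.7, per the labels' protocols. Groups follow the genotype and tissue in the labels. Symbols and positions came from GENCODE M21 (55227 of 55487 identifiers matched).

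Counts were rounded, filtered with filterByExpr and scaled with TMM. Comparisons used the quasi-likelihood F-test of edgeR 4.0.16 in R 4.3.3 (robust, 2-sided, Benjamini-Hochberg over all genes, threshold 0.05), fitted on the 16 libraries of a muscle (17536 genes in gastrocnemius, 18143 in soleus) or on all 32 (18726 genes). The SE is the log2 change divided by the square root of F. Scripts were tested on simulated data. Alternatives were DESeq2 1.42.0, RLE size factors, no filter, rounding down, no mitochondrial genes, only the compared groups, a replicate block, single libraries left out and, chosen after seeing the data, libraries that stand apart left out. In soleus the libraries that stand apart were Acvr1b KO 1 and double KO 1, and across muscles both libraries of mouse double KO 1. Libraries of 1 mouse deviated together across muscles (median correlation 0.14, 11 of 16 over 0.1), and the labels give their shared animal. The members and gene lists were chosen with earlier results of these data known. Named genes: all 10 members; of each sarcomere list up to 4 past the threshold with the largest change and at least 5 CPM; and the 3 genes most like each called member. One gene that this rule names is not reported here. Acvr1b, Tgfbr1, Srf, Myog, Myod1, Ncam1, Musk, Runx1, Myh3, Myh8, Myh7, Myh6, Nppa and Tnni3 were named outside this rule. Depth limits low genes most: Mybph had as few as 23 counts and Ankrd1 73 in a library.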

Additional observations from a re-analysis of the deposited data

Results flagged for a closer look

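In 8 of 80 groups of 4 libraries (10 genes in 8 groups), 1 library lay apart from the other 3 by more of the group's range than Dixon's critical value; chance alone puts about 1 in 20 groups past this limit. Of these, 4 came from the mouse double KO 1. Its Ankrd1 level was 107.8 CPM in gastrocnemius (others 17.2 to 18.98) and 563 CPM in soleus (others 6.66 to 9.11). In its soleus Actn2 measured 990.8 CPM (others 3493 to 3737) and Mybph 11.8 CPM (others 1.85 to 2.03). The other 4 came from different mice. Mybph measured 171.3 CPM in gastrocnemius Tgfbr1 KO 4 (others 49.3 to 69.5), the library that also held the most Actc1 of its group (580.2 CPM), and 2.736 CPM in soleus control 1 (others 0.861 to 1.17). Csrp3 measured 80.69 CPM in gastrocnemius Acvr1b KO 2 (others 32.2 to 40.2), and Actn3 measured 6997 CPM in gastrocnemius Acvr1b KO 1 (others 8028 to 8178).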

How the results depend on the processing

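Of 140 values (10 genes in 14 comparisons), 79 that had an unadjusted p of 0.05 or more and belong to neither double KO against control nor soleus against gastrocnemius, and that passed the threshold in no refit, are given only as counts: their sign changed in 93 of 1422 refits. In double KO against control gastrocnemius the count of 5 called genes ran from 5 to 6 with single libraries left out and was 3 in a fit of those 2 groups alone (Actc1, Mybph and Ankrd2); against Tgfbr1 KO, the count of 4 was 2 in that kind of fit (Actc1 and Mybph). The 3 departures from additivity in gastrocnemius became 0 with no filter on low counts and 0 to 4 with single libraries left out. In soleus, the count of 0 for double KO against control ran from 0 to 1 with single libraries left out, was 1 without the libraries that stand apart and 2 by DESeq2; against Acvr1b KO it ran from 0 to 1 and was 1 and 1 under the same changes, and against Tgfbr1 KO it was 1 by DESeq2. The difference between muscles had 0 calls, 0 to 1 with single libraries left out, 1 (Mybph) without both libraries of mouse double KO 1, and 1 (Actc1) with the animal as a block. DESeq2 gave Ankrd1 no adjusted p in the comparisons within a muscle, those of the single knockouts included, so it has no DESeq2 value there.

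Signs changed for values that were not called. Ankrd1 in soleus ran from −1.22 to 3.78 against control with single libraries left out, from −1.31 to 3.64 against Acvr1b KO, from −0.47 to 4.25 against Tgfbr1 KO and from −0.57 to 4.38 for additivity, and was −1.22, −1.61, −0.47 and −0.87 without the libraries that stand apart; leaving out double KO 1 made each negative. Acta1 in soleus double KO against control ran from −0.201 to 0.0445 and was 0.0444 without those libraries, and Mybpc2 in gastrocnemius ran from −0.0761 to 0.0206 and was 0.0278. Libraries that share a replicate number across genotypes did not pair (3 of 24 pairs in gastrocnemius and 2 of 24 in soleus correlated over 0.1). The replicate block left the calls against control as they were (Actc1 3.13, adjusted p = 2.04e-05; Ankrd1 1.91, adjusted p = 0.0177, in gastrocnemius) and ended that of Ankrd1 for additivity (2.62, adjusted p = 0.104), while Csrp3 passed against Acvr1b KO (−1.08, adjusted p = 0.0309).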

Other observations

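Markers of the other cells in a whole muscle were counted beside the 10 genes in double KO against control. Of all genes tested, 11.4% rose and 9.59% fell in gastrocnemius, and 0.722% were called in soleus. In gastrocnemius, 4 of 6 macrophage markers rose (summed level 48.6 to 81.7 CPM against 36.1 to 42.1 CPM in controls), 2 of 6 fibroblast markers rose, 3 of 5 endothelial and 2 of 5 adipocyte markers fell, 2 of 8 smooth muscle and pericyte markers rose and 2 fell, 1 of 7 satellite cell markers rose and 1 fell, and 1 of 4 tested heart markers fell. No tendon marker (of 6) and no nerve or Schwann cell marker (of 6 tested) passed. In soleus none of the 13 lists had a member past the threshold; the denervated-fibre list had a median log2 change of 1.65 there, with the summed level of 1480 CPM in double KO 1 and 83.6 to 92.3 CPM in the other 3 mice.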
